A study of Mus musculus with 14 samples.

Results

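The genes described here build the MHC class I complex of mouse monocytes and load it with peptide. The 10 members were chosen by symbol and found by their Ensembl identifiers among the 55487 rows of the deposited count table. They are the heavy chains H2-K1, H2-D1, H2-Q6, H2-Q7 and H2-T23, the light chain B2m, the peptide transporter chains Tap1 and Tap2, the loading factor Tapbp and the regulator Nlrc5. All 10 passed the filter on low counts, which kept 14754 genes.

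The series holds RNA-seq of monocytes taken from mouse leg bone marrow with a commercial isolation kit and kept for 3 h in culture. The groups were libraries labelled AhR-deficient with IL-4 (n = 3), libraries labelled AhR-deficient in medium (n = 3), wild-type libraries with IL-4 (n = 4) and wild-type libraries in medium (n = 4). IL-4, a type 2 cytokine, was given at 20 ng/mL, and AhR is the aryl hydrocarbon receptor, a ligand-activated transcription factor. The labels report a purity of 90 to 95% by flow cytometry, while the mice's strain, age, allele and deleted exons are not stated there. Titles carry the numbers 4, 5 and 6 for AhR-deficient libraries and 1, 2, 3 and 7 for wild-type libraries, each number once with IL-4 and once in medium.

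A class I molecule pairs a heavy chain with beta-2-microglobulin and presents peptides from the cytosol to CD8 T cells. Tap1 and Tap2 form the pump that moves peptides into the endoplasmic reticulum, where tapasin, the product of Tapbp, holds empty class I molecules to the pump. Nlrc5 is the transactivator of class I genes and acts at the SXY module of their promoters, and interferons raise most of these genes in many cell types.

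Libraries held 33432502 to 42885079 counts. Ahr itself showed no loss in libraries labelled AhR-deficient, at 36.9 to 45.2 CPM (read counts relative to TMM-scaled library size) with IL-4 and 15.7 to 26.1 CPM in medium, against 23.7 to 26.9 and 11.4 to 14.4 CPM in wild-type libraries with IL-4 and in medium, and whether the counted reads cover the deleted part is not given. Xist lay at 987 CPM or more in every library labelled AhR-deficient and at 2.12 CPM or less in every wild-type library, while Ddx3y, a Y-linked gene, was at 0 in every library labelled AhR-deficient and at 114 CPM or more in every wild-type library. By these genes the libraries labelled AhR-deficient were of female type and the wild-type libraries of male type. Genotype and sex cannot be told apart in any genotype comparison below. All 10 monocyte markers had counts in every library, and they summed to 14500 to 16200 CPM in AhR-deficient and 14500 to 15800 CPM in wild-type libraries with IL-4, against 22900 to 26300 and 22600 to 25600 CPM in medium. In these bulk samples, fewer cells of a type and less RNA per cell cannot be told apart.

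The promoters of the heavy chain genes are shown because 4 of these 5 genes carry nearly the same row of short motifs, among them H2-Q6 and H2-Q7, whose estimates with IL-4 and between genotypes were the farthest from 0. B2m stands beside them for comparison. The sequences are RefSeq promoter windows on GRCm38.p6, running from 250 bases before to 50 after the annotated start, of which one stretch each is printed 5′ to 3′ on the gene's strand. Capitals mark, on either strand, the NF-kB motif GGGATTCCC, the interferon response motif GAANNGAAA, the X2 or CRE core TGACG and the Y box CCAAT. The stretches lie at chr17:34000329-34000463, minus strand; at chr17:35262918-35263051, plus strand; at chr17:35424672-35424805, plus strand; at chr17:35439017-35439149, plus strand; at chr17:36032743-36032872, minus strand; and at chr2:122147515-122147644, plus strand.
H2-K1: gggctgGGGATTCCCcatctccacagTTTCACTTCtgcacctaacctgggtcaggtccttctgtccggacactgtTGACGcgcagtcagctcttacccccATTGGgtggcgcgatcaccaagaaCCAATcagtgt
H2-D1: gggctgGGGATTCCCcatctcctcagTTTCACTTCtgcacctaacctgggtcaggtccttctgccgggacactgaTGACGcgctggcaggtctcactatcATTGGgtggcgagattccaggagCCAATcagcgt
H2-Q6: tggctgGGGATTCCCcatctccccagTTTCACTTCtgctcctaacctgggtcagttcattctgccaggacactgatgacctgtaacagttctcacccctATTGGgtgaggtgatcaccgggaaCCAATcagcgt
H2-Q7: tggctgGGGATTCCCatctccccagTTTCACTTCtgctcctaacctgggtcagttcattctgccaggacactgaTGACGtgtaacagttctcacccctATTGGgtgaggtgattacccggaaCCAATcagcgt
H2-T23: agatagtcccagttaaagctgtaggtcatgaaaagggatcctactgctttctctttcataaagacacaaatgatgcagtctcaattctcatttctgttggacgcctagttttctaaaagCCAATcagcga
B2m: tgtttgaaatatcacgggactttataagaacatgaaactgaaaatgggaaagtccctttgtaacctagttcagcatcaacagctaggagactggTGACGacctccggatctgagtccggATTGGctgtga

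H2-K1, H2-D1 and H2-Q7 held all 4 motifs in the order NF-kB, interferon response, X2 and Y box, and only 4 of 32851 promoter windows, those of these 3 genes with H2-K1 entered under 2 starts, held all of them (0.012%). H2-Q6 held the same set except TGACG. Of these 4 motifs, H2-T23 held only a Y box and Tapbp 2 Y boxes. B2m held 2 TGACG matches and a Y box, and Tap1 a TGACG and a Y box. Singly, the motifs were found in 0.353% (NF-kB), 7.52% (interferon response), 20.8% (X2) and 37.4% (Y box) of all windows. GGGATTCCC allows no variant, so the share of windows with all 4 motifs depends on the letters chosen. No member's window held the STAT6-type motif TTCNNNNGAA, which 6.95% of all windows held. Of the 10 members, 8 had an entry, and Tap2 and Nlrc5 are named only. Only these letters were searched, so gaaactgaaa in the B2m stretch, which is close to GAANNGAAA, was not counted. A match describes letters and not binding.

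**Figure D1:**
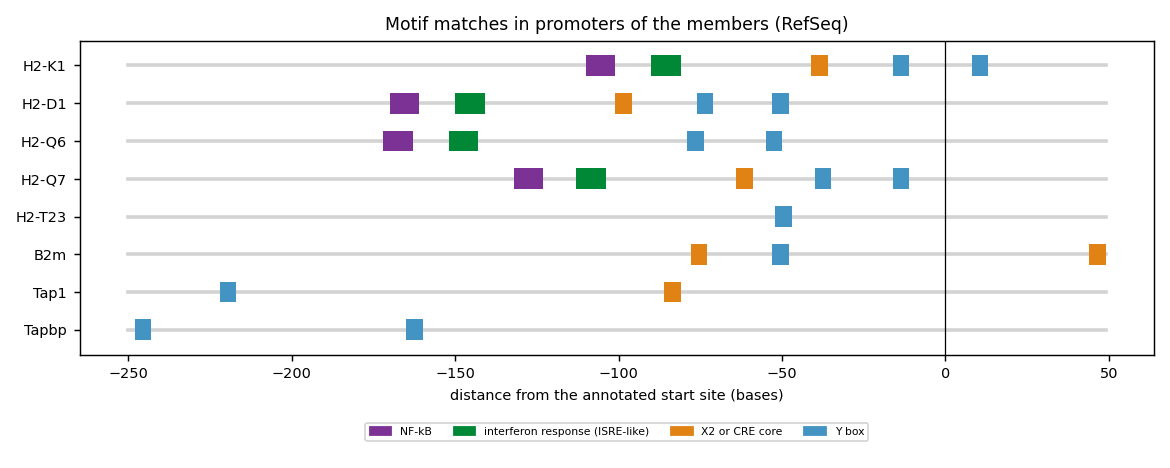
Motif matches in the promoter windows of 8 members, by distance in bases from the annotated start site (x axis), one line per gene. The NF-kB, interferon response and Y box marks recur in the same order in H2-K1, H2-D1, H2-Q6 and H2-Q7, while H2-T23, Tap1 and Tapbp hold only Y box or X2 marks.

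Reads of class I relatives can fall on more than one gene. Of the 100-base windows along the longest coding transcript, 16.4% in H2-Q7, 10.8% in H2-Q6, 7.28% in H2-T23 and 4.64% in H2-D1 occurred word for word in another gene, against 0% in H2-K1, B2m, Tap1, Tap2 and Nlrc5 and 0.107% in Tapbp. H2-Q6 and H2-Q7 shared 166 windows with each other. Members also shared windows with relatives outside the 10. H2-D1 shared 85 with H2-Q1 and 10 with H2-K2, H2-Q7 67 with H2-Q5, H2-T23 32 with H2-T22 and H2-Q6 30 with H2-Q4. How the authors' counting treated such reads is not given, so the split of counts between H2-Q6 and H2-Q7, and between members and these relatives, is uncertain.

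Per kilobase of exon, with each annotated exon base of a gene counted once, the members' levels differed widely. This length was 4265 bases for H2-Q7, 5476 for Tap1 and 2889 for H2-T23, whose longest coding transcripts have 1523, 2953 and 1472 bases. For H2-Q6 both lengths were 2085 bases, so the places below H2-K1 depend on the length chosen. In wild-type medium libraries B2m stood at 1796 ± 88.2 CPM per kb (SD, n = 4), H2-D1 at 775 ± 16.3, H2-K1 at 318.7 ± 19.3, Tapbp at 56.4 ± 2.22, H2-T23 at 52.7 ± 3.87, H2-Q6 at 20.8 ± 5.26, Tap1 at 17.5 ± 2.67, H2-Q7 at 11.7 ± 3.23, Tap2 at 10.4 ± 1.31 and Nlrc5 at 3.67 ± 0.449. The ranges of Tapbp and H2-T23 overlapped, as did those of H2-Q6 and Tap1, Tap1 and H2-Q7, and H2-Q7 and Tap2. B2m, H2-D1 and H2-K1 led the order in all 4 groups, with no overlap among them or with the next gene, and Nlrc5 had the lowest mean. The places between H2-T23 and Nlrc5 changed among H2-Q6, H2-Q7, Tap1 and Tap2: in AhR-deficient medium libraries H2-Q6 ranked 6th at 64.4 ± 19.6 CPM per kb, next to H2-T23 at 67.7 ± 11.8 (n = 3), and in wild-type IL-4 libraries it ranked 8th at 9.99 ± 4.73, between Tap2 at 12.2 ± 0.281 and H2-Q7 at 6.6 ± 2.8 (n = 4).

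**Figure D2:**
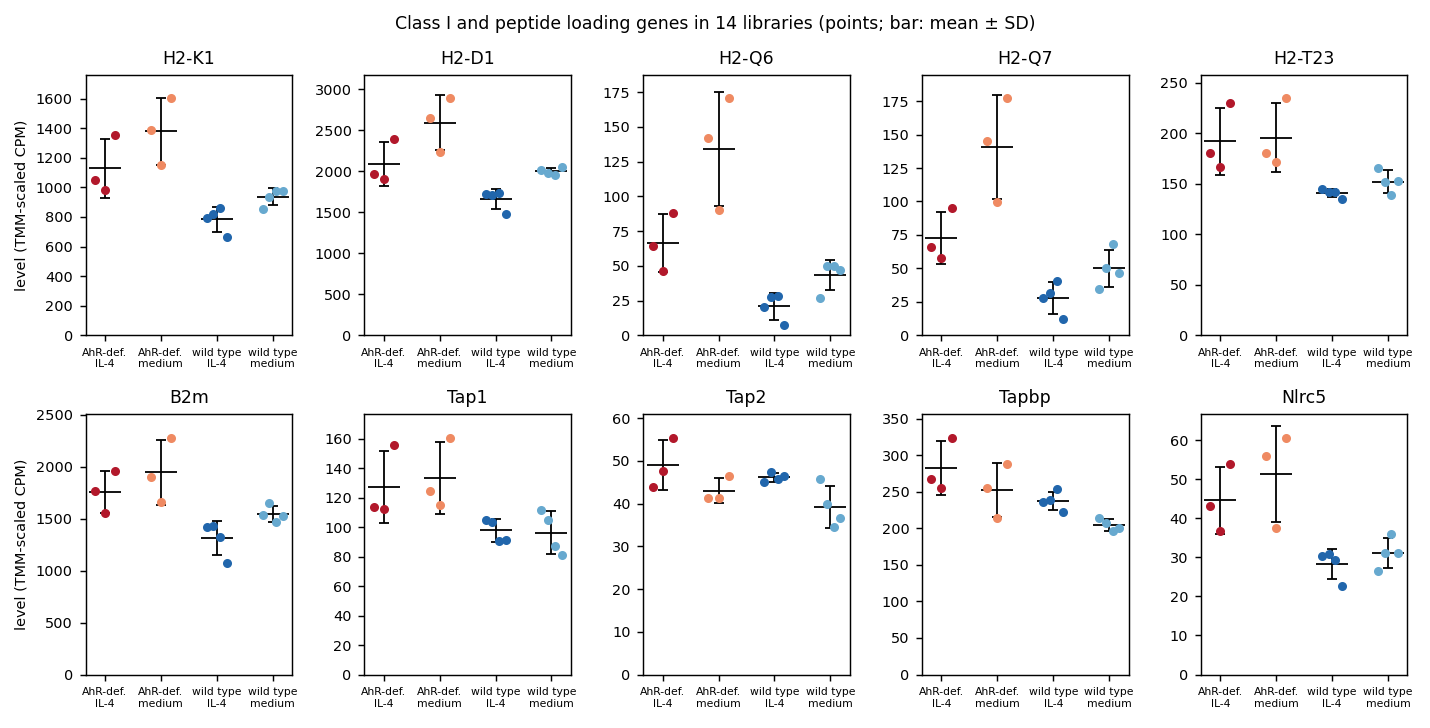
Level of each member in TMM-scaled CPM (y axis, from 0) in 14 libraries, with one point per library and the mean ± SD as bars, for AhR-deficient IL-4, AhR-deficient medium, wild-type IL-4 and wild-type medium. H2-Q6 and H2-Q7 are highest in AhR-deficient medium libraries and lowest in wild-type IL-4 libraries, and the wild-type IL-4 library of number 7 (the right-most point of its group) is the lowest point of H2-K1, H2-D1, H2-Q6, H2-Q7, B2m and Nlrc5.

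After 3 h of IL-4, the heavy chain genes H2-D1 and H2-Q6 were lower and the transporter gene Tap2 higher in wild-type monocytes. With edgeR's quasi-likelihood test and Benjamini-Hochberg adjustment over all genes (call at adjusted p under 0.05), 3 of the 10 members passed in wild-type libraries, where 35.9% of 14754 genes did. Tap2 was higher, as were 19.4% of all genes, and H2-D1 and H2-Q6 were lower, as were 16.5%. The members' median log2 fold change was -0.19, against 0.01 over all genes tested. With the number as a replicate block, under which 42.7% of all genes passed, 7 members did: Tap2 and Tapbp higher, and H2-K1, H2-D1, H2-Q6, H2-Q7 and B2m lower. The count depended on single libraries. It was 1 without wild-type IL-4 library 1 or 7 or without wild-type medium library 2 or 3. It was 0 without wild-type medium library 7 or without both libraries of number 7, a setting chosen after seeing the data. Over all genes, these fits without 1 library called 4644 to 4947 of 14650 to 14723. The fit without number 7 called 4138 of 14668, against 5296 of 14754 with all libraries.

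In the libraries labelled AhR-deficient, 1 member passed in the IL-4 comparison, H2-D1, which was lower. There 29.5% of 14754 genes passed, 15.4% higher and 14.2% lower, and the members' median log2 fold change was -0.17 against -0.01 over all genes. With the replicate block 5 members passed, as did 36.2% of all genes: Tapbp higher and H2-K1, H2-D1, H2-Q6 and H2-Q7 lower. The count was 0 without AhR-deficient IL-4 library 4 or 5 or AhR-deficient medium library 4 or 6. It was 2 without wild-type IL-4 library 3 or wild-type medium library 1. Without AhR-deficient IL-4 library 6 or wild-type IL-4 library 7 it was 3, and without AhR-deficient medium library 5 it was 4. Over all genes, 3621 to 3733 of 15042 to 15099 passed in the fits at 0. In those at 2 to 4, 3688 to 4644 of 14678 to 15050 passed, against 4359 of 14754 with all libraries. The 7 dendritic cell markers were higher in sum with IL-4, at 233 to 238 against 106 to 123 CPM in AhR-deficient libraries and 168 to 205 against 92.2 to 133 CPM in wild-type libraries. Flt3 and Itgax made up most of this sum, with group means of 80.6 and 102 CPM with IL-4 against 33.1 and 43.9 CPM in medium in AhR-deficient libraries. Cd209a also had higher means with IL-4, at 32.9 against 16.4 CPM in AhR-deficient and 23.5 against 20.9 CPM in wild-type libraries. Clec9a was higher with IL-4 only in AhR-deficient and Siglech only in wild-type libraries. Zbtb46 did not follow, at 4.22 against 6.75 CPM in AhR-deficient and 2.94 against 4.26 CPM in wild-type libraries, and Xcr1 was at or near 0 throughout. The part of these cells in the results was not tested.

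In medium, 5 members were higher in the libraries labelled AhR-deficient than in wild-type libraries by edgeR: H2-K1, H2-D1, H2-Q6, H2-Q7 and Nlrc5. No member was lower. Of all 14754 genes 8.11% passed, 4.16% higher and 3.95% lower, and the median log2 fold change was 0.42 over the members and 0.01 over all genes. The count was 0 without AhR-deficient medium library 4 or 6 or wild-type medium library 2. Over all genes, these fits called 95 of 15051, 688 of 15085 and 367 of 14720, against 1197 of 14754 with all libraries. It was 2 without wild-type medium library 1, where 661 of 14678 genes passed. The count was 8 without AhR-deficient IL-4 library 6 (1094 of 15050 genes) and 9 without AhR-deficient medium library 5 (1063 of 15040). DESeq2's Wald test called 9 members and 13.4% of all genes. With the number as a random block in limma-voom 7 members and 9.32% of all genes passed, with H2-T23 (adjusted p = 0.0448) and Tap1 (0.0358) added.

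With IL-4 on both sides, 1 member was higher in AhR-deficient libraries, H2-Q6, where 1.62% of 14754 genes passed, 0.956% higher and 0.664% lower. The members' median log2 fold change was 0.44, against -0.01 over all genes, and 9 of the 10 members had an unadjusted p under 0.05 in each genotype comparison, as did 3914 genes in medium and 2715 with IL-4. DESeq2 called 7 members and 5.44% of all genes here. The random block called 4 members and 2.85% of all genes, with H2-K1 (adjusted p = 0.036), H2-Q7 (0.0337) and H2-T23 (0.037) beside H2-Q6 (0.0347). The edgeR count ranged between 0 and 5 when 1 library was left out. It was 5 without wild-type medium library 1, and 3 without AhR-deficient medium library 5 or wild-type IL-4 library 3. It was 2 without AhR-deficient medium library 6, 1 without wild-type medium library 7, and 0 without any other of the 14 libraries. Over all genes, 24 to 240 of 14650 to 15099 passed in the fits at 0. In those at 1 to 5, 166 to 533 of 14678 to 15085 passed, against 239 of 14754 with all libraries.

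Markers of other cell types were compared between the genotypes in the same libraries. All 11 neutrophil markers had counts everywhere and summed to 419 to 769 CPM in AhR-deficient and 476 to 1180 CPM in wild-type medium libraries. The 8 eosinophil and basophil markers summed to 31.6 to 120 and 74.4 to 234 CPM, and the ranges overlapped for both lists. In medium, Elane and Mpo of the neutrophil list had higher means in AhR-deficient libraries, at 34.7 and 46.9 against 23.2 and 29.3 CPM. The other neutrophil markers had lower means there. With the mean log2 level of both lists as a covariate, 0 members passed in either genotype comparison by edgeR. Over all genes 2.62% then passed in medium and 0.197% with IL-4. The log2 fold change in medium was 0.42 ± 0.11 for H2-K1 and 1.33 ± 0.38 for H2-Q6 (SE) in this fit. The 8 B cell and plasma cell markers summed to 40.3 to 68 CPM in AhR-deficient and 9.52 to 33.3 CPM in wild-type medium libraries. Most of that sum was Jchain, at 37 to 65 against 7.19 to 29.4 CPM. The part of these cell types in the genotype differences was not tested.

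No member passed the test of a difference in IL-4 response between the genotypes. The interaction called 0 members and 0% of 14754 genes by edgeR, and 0 members and 558 genes had an unadjusted p under 0.05. By DESeq2, 3 genes (0.0203%) and no member passed. The difference between the genotypes' log2 fold changes was -0.03 ± 0.18 for H2-K1, -0.04 ± 0.13 for H2-D1, 0.04 ± 0.53 for H2-Q6 and -0.12 ± 0.46 for H2-Q7 (SE). For the H2-Q genes these errors also cover differences of over 0.4 on the log2 scale. The comparisons share libraries: each IL-4 comparison shares one group with each genotype comparison.

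**Figure D3:**
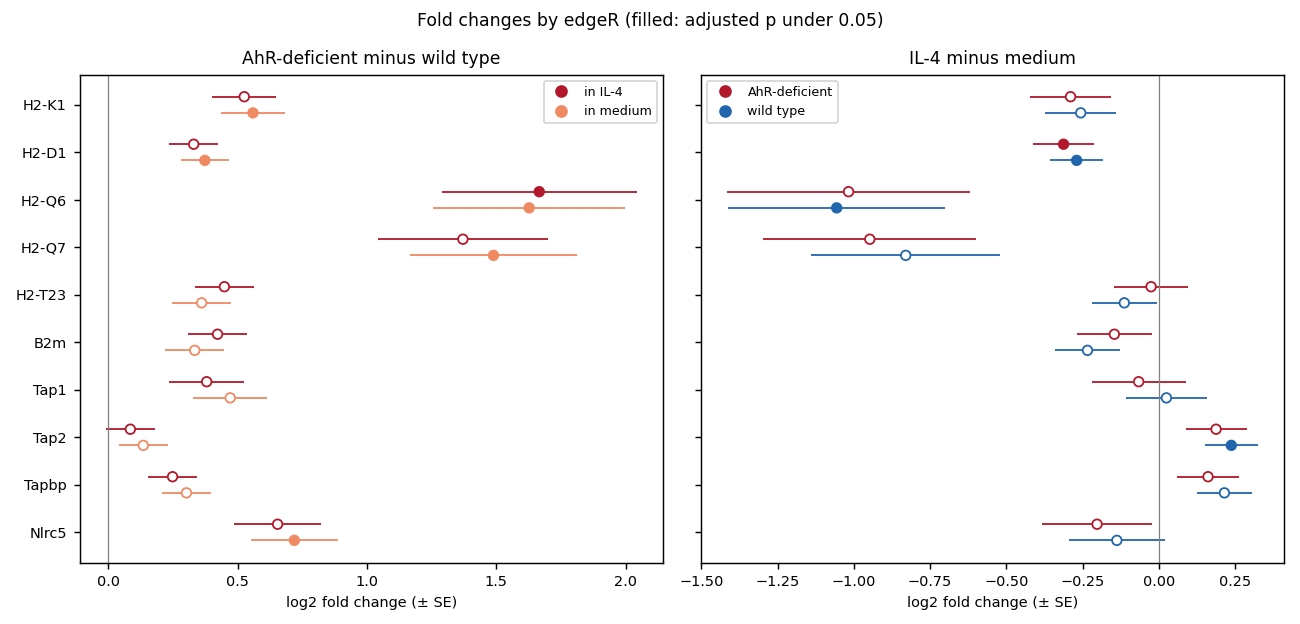
Log2 fold changes of the 10 members with their SE (x axis), for AhR-deficient minus wild type with IL-4 and in medium (left) and for IL-4 minus medium in AhR-deficient and wild-type libraries (right). Filled points passed an adjusted p of 0.05 by edgeR; all genotype estimates lie above 0, and the H2-Q6 and H2-Q7 estimates lie farthest from 0 in both panels.

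H2-D1 and H2-K1 encode the classical heavy chains that present peptides to CD8 T cells. H2-D1 was measured at 1964, 1898 and 2395 CPM in AhR-deficient IL-4 libraries, against 2653, 2227 and 2888 CPM in AhR-deficient medium libraries (numbers 4, 5 and 6). In wild-type libraries it was at 1716, 1705, 1736 and 1478 CPM with IL-4, against 2009, 1974, 1958 and 2053 CPM in medium (numbers 1, 2, 3 and 7). The wild-type groups did not overlap, the AhR-deficient groups did, and within every number the IL-4 library was the lower one. The log2 fold change with IL-4 was -0.31 ± 0.10 in AhR-deficient (adjusted p = 0.0306) and -0.27 ± 0.09 in wild-type libraries (edgeR, adjusted p = 0.0267). The wild-type call was lost without wild-type IL-4 library 7 (adjusted p = 0.086) or wild-type medium library 7 (0.0601), and the AhR-deficient call without AhR-deficient IL-4 library 4 (0.112) or 5 (0.136) or AhR-deficient medium library 4 (0.0862) or 6 (0.148).

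Against wild type, H2-D1 was higher in AhR-deficient libraries by 0.37 ± 0.09 in medium (log2, edgeR adjusted p = 0.0309), with no overlap. With IL-4 the log2 difference was 0.33 ± 0.09 (adjusted p = 0.0869), again with no overlap. The call in medium was lost without AhR-deficient medium library 4 (0.138) or 6 (0.107) or wild-type medium library 1 (0.059) or 2 (0.0836).

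H2-K1 was at 1047, 985 and 1357 CPM in AhR-deficient IL-4 libraries, against 1386, 1151 and 1603 CPM in AhR-deficient medium libraries. Wild-type libraries had 796, 819, 858 and 664 CPM with IL-4, against 857, 934, 976 and 979 CPM in medium. The IL-4 and medium groups overlapped in both genotypes, while within each of the 7 numbers the IL-4 library was lower. The log2 fold change with IL-4 was -0.29 ± 0.13 in AhR-deficient (adjusted p = 0.128) and -0.26 ± 0.12 in wild-type libraries (edgeR, adjusted p = 0.105), and with the replicate block the adjusted p was 0.0137 and 0.00997. In medium, H2-K1 was higher in AhR-deficient than in wild-type libraries by 0.56 ± 0.12 (log2, adjusted p = 0.0199), and with IL-4 the difference was 0.53 ± 0.12 (0.0518), with no overlap in either. The call in medium was lost without AhR-deficient medium library 4 (adjusted p = 0.0863) or 6 (0.0716) or wild-type medium library 2 (0.0544).

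H2-Q6 and H2-Q7 encode chains of Qa-2, a non-classical class I molecule of the mouse that is often anchored by a lipid tail. H2-Q6 was at 64.5, 46.2 and 88.2 CPM in AhR-deficient IL-4 libraries, against 142, 90.0 and 170.6 CPM in AhR-deficient medium libraries. Wild-type libraries had 20.3, 27.7, 28.3 and 7.08 CPM with IL-4, against 27.1, 49.6, 49.7 and 47.3 CPM in medium. The AhR-deficient groups did not overlap; in wild type the medium library of number 1 lay below 2 of the IL-4 libraries. With IL-4, H2-Q6 was 2.02-fold lower in AhR-deficient (log2 -1.02 ± 0.40, adjusted p = 0.0721) and 2.08-fold lower in wild-type libraries (log2 -1.06 ± 0.36, edgeR adjusted p = 0.0321). The replicate block gave an adjusted p of 0.0166 and 0.0065. The wild-type call was lost without wild-type IL-4 library 1 (0.0641) or wild-type medium library 2 (0.073), 3 (0.0668) or 7 (0.065), and without both libraries of number 7 (log2 -0.73, adjusted p = 0.089).

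Between genotypes H2-Q6 differed most among the members. It was 3.09-fold higher in AhR-deficient than in wild-type libraries in medium (log2 1.63 ± 0.37, edgeR adjusted p = 0.0216) and 3.17-fold higher with IL-4 (log2 1.67 ± 0.38, adjusted p = 0.046), with no overlap in either. The call in medium was lost without AhR-deficient medium library 4 (0.091) or 6 (0.0667) or wild-type medium library 1 (0.0502) or 2 (0.0541). The call with IL-4 was lost without AhR-deficient IL-4 library 4 (0.138), 5 (0.0999) or 6 (0.103) or wild-type IL-4 library 1 (0.118), 2 (0.101) or 7 (0.0504).

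H2-Q7 was at 65.9, 58.0 and 94.9 CPM in AhR-deficient IL-4 libraries, against 145.4, 99.4 and 177.2 CPM in AhR-deficient medium libraries. Wild-type libraries had 28.2, 31.4, 40.9 and 12.1 CPM with IL-4, against 34.8, 50.5, 68.1 and 46.8 CPM in medium. As for H2-Q6, the AhR-deficient groups were apart and the wild-type groups overlapped. The log2 fold change with IL-4 was -0.95 ± 0.35 in AhR-deficient (adjusted p = 0.0562) and -0.83 ± 0.31 in wild-type libraries (edgeR, adjusted p = 0.0501), just outside the threshold, and the replicate block gave 0.00515 and 0.00397. Leaving out AhR-deficient IL-4 library 6 (0.0454) or AhR-deficient medium library 5 (0.0365), or in wild type IL-4 library 3 (0.0215) or medium library 1 (0.0297), brought it past the threshold. In medium H2-Q7 was 2.81-fold higher in AhR-deficient than in wild-type libraries (log2 1.49 ± 0.32, adjusted p = 0.0182), and with IL-4 the log2 difference was 1.37 ± 0.33 (adjusted p = 0.0537), again without overlap. The call in medium was lost without AhR-deficient medium library 4 (0.0802) or 6 (0.0586) or wild-type medium library 2 (0.0541), and the difference with IL-4 passed without wild-type IL-4 library 3 (0.0366).

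H2-T23 encodes Qa-1, the ligand of the NKG2A receptor of NK cells. It was at 180.2, 167 and 229.5 CPM in AhR-deficient IL-4 libraries, against 181, 171 and 235 CPM in AhR-deficient medium libraries. In wild-type libraries it was at 144.5, 141, 142 and 135 CPM with IL-4, against 166, 152, 138 and 153 CPM in medium. The groups overlapped in both genotypes and the log2 fold change was -0.03 ± 0.12 in AhR-deficient (adjusted p = 0.913) and -0.11 ± 0.11 in wild-type libraries (edgeR, adjusted p = 0.455). Against wild type, the AhR-deficient libraries were higher by 0.36 ± 0.11 in medium (log2, adjusted p = 0.0642) and by 0.45 ± 0.11 with IL-4 (0.0602), neither past the threshold although no libraries overlapped. The value in medium passed without AhR-deficient medium library 5 (0.0438).

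The makeup of the heavy chain counts moved with the H2-Q genes. H2-Q6 gave 1.84 ± 0.34% of the counts of the 5 heavy chain genes in AhR-deficient IL-4 and 2.97 ± 0.50% in AhR-deficient medium libraries (n = 3 each), and 0.771 ± 0.33% in wild-type IL-4 and 1.36 ± 0.33% in wild-type medium libraries (SD, n = 4 each). H2-D1 held 58.9 ± 1.3% and 58.5 ± 1.4% in AhR-deficient and 63.1 ± 1.1% and 62.9 ± 1.5% in wild-type libraries with IL-4 and in medium. H2-T23 held 5.41 ± 0.11% with IL-4 and 4.40 ± 0.34% in medium in AhR-deficient libraries.

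Summing the 5 chains avoids the question of how shared reads were split among them. It does not settle reads shared with relatives outside the sum, such as H2-Q1, H2-Q4, H2-Q5, H2-T22 and H2-K2. The sum was at 3321, 3154 and 4164 CPM in AhR-deficient IL-4 libraries, against 4509, 3739 and 5074 CPM in AhR-deficient medium libraries. Wild-type libraries had 2704, 2724, 2805 and 2295 CPM with IL-4, against 3094, 3159, 3191 and 3279 CPM in medium. With IL-4 the sum was lower by edgeR, at a log2 fold change of -0.32 ± 0.12 in AhR-deficient (adjusted p = 0.0498) and -0.27 ± 0.10 in wild-type libraries (0.0481), close to the threshold in both, and the replicate block gave 0.0031 and 0.0028. The wild-type value did not pass without wild-type IL-4 library 1 (0.059), 2 (0.0647) or 7 (0.143), wild-type medium library 1 (0.0576), 2 (0.0777), 3 (0.0743) or 7 (0.0928), or AhR-deficient IL-4 or medium library 4 (0.0559 and 0.0556). The AhR-deficient value failed without AhR-deficient IL-4 library 4 (0.162) or 5 (0.2), AhR-deficient medium library 4 (0.117) or 6 (0.225), wild-type IL-4 library 1 (0.0693), 2 (0.0624) or 3 (0.0575), or any wild-type medium library (0.055 to 0.065).

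In medium the summed chains were 1.40-fold higher in AhR-deficient than in wild-type libraries (log2 0.48 ± 0.11, edgeR adjusted p = 0.0208). With IL-4 the log2 difference was 0.43 ± 0.11 (0.06). The value in medium did not pass without AhR-deficient medium library 4 (0.0952) or 6 (0.0731) or wild-type medium library 2 (0.0579), and the value with IL-4 passed without AhR-deficient medium library 5 (0.0453).

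B2m, the light chain shared by all these heavy chains and by CD1 and the neonatal Fc receptor, was at 1767, 1554 and 1960 CPM in AhR-deficient IL-4 libraries, against 1901, 1659 and 2282 CPM in AhR-deficient medium libraries. Wild-type libraries had 1423, 1430, 1322 and 1078 CPM with IL-4, against 1534, 1648, 1465 and 1531 CPM in medium, with no overlap. In each of the 7 numbers the IL-4 library was lower. The log2 fold change was -0.15 ± 0.12 in AhR-deficient (adjusted p = 0.432) and -0.23 ± 0.11 in wild-type libraries (edgeR, adjusted p = 0.109), and the replicate block gave 0.00806 in wild type. Against wild type, the AhR-deficient libraries differed by 0.33 ± 0.12 in medium (log2, adjusted p = 0.0848) and by 0.42 ± 0.12 with IL-4 (0.0773), without overlap, and the value in medium passed without AhR-deficient medium library 5 (0.0437).

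Tap1 and Tap2, the chains of the peptide transporter, lie side by side on chromosome 17. Tap1 was at 114, 112 and 156 CPM in AhR-deficient IL-4 libraries, against 124, 115 and 161 CPM in AhR-deficient medium libraries, and at 105, 104, 90.7 and 91.3 CPM in wild-type IL-4 libraries, against 112, 105, 86.9 and 80.8 CPM in wild-type medium libraries. Its log2 fold change with IL-4 was -0.07 ± 0.15 in AhR-deficient and 0.03 ± 0.13 in wild-type libraries (edgeR, adjusted p = 0.807 and 0.912). The AhR-deficient libraries lay above the wild-type ones with no overlap in either medium or IL-4, at log2 differences of 0.47 ± 0.14 (adjusted p = 0.0583) and 0.38 ± 0.14 (0.18), and the first passed without AhR-deficient medium library 5 (0.0465).

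Tap2 was at 43.9, 47.6 and 55.5 CPM in AhR-deficient IL-4 libraries, against 41.4, 41.3 and 46.5 CPM in AhR-deficient medium libraries. In wild-type libraries it was at 45.0, 47.5, 45.8 and 46.5 CPM with IL-4, against 45.8, 39.8, 34.5 and 36.6 CPM in medium, where number 1 was as high as the IL-4 libraries. The log2 fold change was 0.19 ± 0.10 in AhR-deficient (adjusted p = 0.191) and 0.24 ± 0.09 in wild-type libraries (edgeR, adjusted p = 0.0469, with the block 0.0125). The wild-type call held only without wild-type medium library 1 among the 8 fits that each left out 1 wild-type library, and the other 7 gave adjusted p-values of 0.0757 to 0.146. Tap2 had the smallest genotype difference of the members, 0.14 ± 0.09 in medium (adjusted p = 0.391) and 0.09 ± 0.09 with IL-4 (0.674), with overlap in both.

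Tapbp encodes tapasin. It was at 268, 254.5 and 324 CPM in AhR-deficient IL-4 libraries, against 255, 213.5 and 288 CPM in AhR-deficient medium libraries, and at 235, 238, 253 and 223 CPM in wild-type IL-4 libraries, against 215, 207, 196 and 200.4 CPM in wild-type medium libraries. The wild-type groups did not overlap, and in 7 of 7 numbers the IL-4 library was the higher one, the opposite direction to H2-K1, H2-D1, H2-Q6 and H2-Q7. The log2 fold change was 0.16 ± 0.10 in AhR-deficient (adjusted p = 0.277) and 0.22 ± 0.09 in wild-type libraries (edgeR, adjusted p = 0.0754), and the replicate block gave 0.0402 and 0.00437. Against wild type the log2 difference was 0.30 ± 0.10 in medium (adjusted p = 0.0654, passing without AhR-deficient medium library 5 at 0.023) and 0.25 ± 0.10 with IL-4 (0.187).

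Nlrc5 was the least abundant member per kilobase of exon. Unscaled for length, it was at 43.2, 36.8 and 53.9 CPM in AhR-deficient IL-4 libraries, against 55.9, 37.5 and 60.7 CPM in AhR-deficient medium libraries, and at 30.3, 31.0, 29.5 and 22.6 CPM in wild-type IL-4 libraries, against 26.6, 31.0, 35.9 and 31.2 CPM in wild-type medium libraries. With IL-4 its log2 fold change was -0.20 ± 0.18 in AhR-deficient (adjusted p = 0.455) and -0.14 ± 0.16 in wild-type libraries (edgeR, adjusted p = 0.55), with overlap in both. In medium it was 1.65-fold higher in AhR-deficient than in wild-type libraries (log2 0.72 ± 0.17, adjusted p = 0.0238), and with IL-4 the log2 difference was 0.65 ± 0.17 (0.0642), with no overlap in either. The call in medium was lost without AhR-deficient medium library 4 (0.124) or 6 (0.0817) or wild-type medium library 1 (0.0586) or 2 (0.065).

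**Figure D4:**
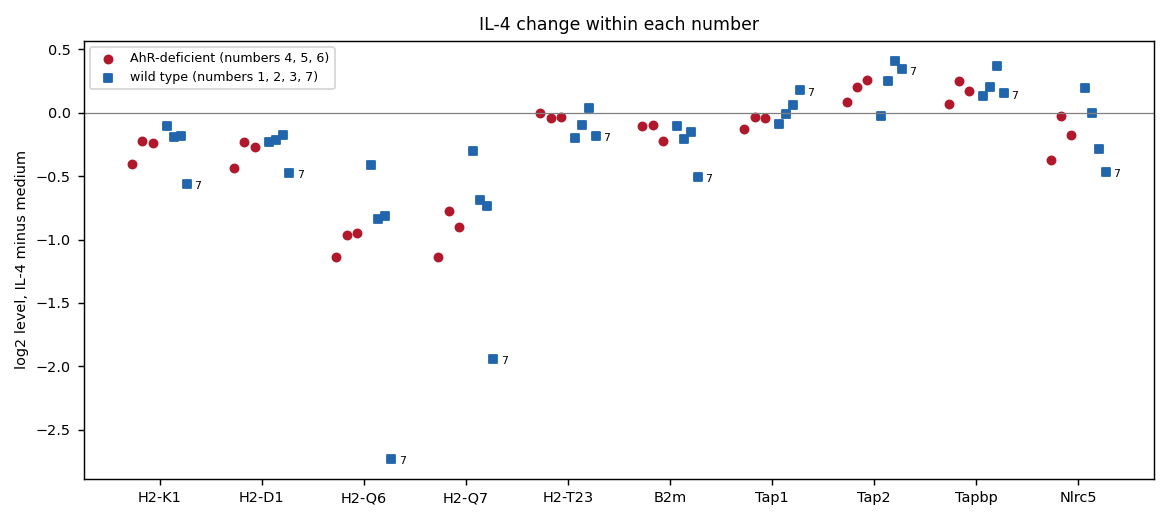
Log2 level with IL-4 minus medium (y axis) within each number, for AhR-deficient (circles) and wild-type libraries (squares, number 7 marked), by member. H2-K1, H2-D1, H2-Q6, H2-Q7 and B2m lie below 0 in 7 of 7 numbers and Tapbp above 0 in 7 of 7, and number 7 reaches -2.73 for H2-Q6 and -1.94 for H2-Q7.

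Within numbers, the size of the IL-4 change varied more in wild-type than in AhR-deficient libraries for the H2-Q genes. H2-Q6 changed by -1.14, -0.96 and -0.95 on the log2 scale in numbers 4, 5 and 6, against -0.42, -0.84, -0.81 and -2.73 in numbers 1, 2, 3 and 7. H2-K1 changed by -0.41 to -0.23 and by -0.56 to -0.11. Number 7 gave the largest fall of H2-K1, H2-D1, H2-Q6, H2-Q7, B2m and Nlrc5, and its pair of libraries also correlated least after removal of group means (r = 0.17, against 0.486 to 0.706 in the others). The spread of changes was not compared by a test.

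Across the 14 libraries, the genes whose log2 level ran closest to Nlrc5 were Trim30d (Pearson r = 0.957), H2-T10 (0.948), Ifih1 (0.946), Psme2 (0.942) and Ifit1 (0.937), out of 10565 genes compared. For H2-K1 they were H2-Q4 (0.98), Oasl1 (0.965), H2-Q5 (0.957), Rsad2 (0.957) and H2-T10 (0.95). Ifih1, Ifit1, Oasl1 and Rsad2 are known as interferon-stimulated genes. The libraries share genotype, treatment and number, so these values describe the 14 libraries and carry no test.

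Among 12 measured relatives of the class I chains (25 listed), 3 were higher and 2 lower with IL-4 in each genotype by edgeR, where 29.5% of all genes passed in AhR-deficient and 35.9% in wild-type libraries. Their median log2 fold change was -0.08 and 0.04. The higher ones in wild type included Hfe, the class I-like regulator of iron uptake, at 203.9 against 91.1 CPM in AhR-deficient and 220.0 against 93.6 CPM in wild-type libraries (log2 1.16 ± 0.09 and 1.23 ± 0.07, adjusted p = 2.17e-07 and 1.7e-08). Fcgrt, the neonatal Fc receptor chain that also pairs with B2m, rose by 0.58 ± 0.09 and 0.80 ± 0.08 (adjusted p = 0.000163 and 1.6e-06). H2-M5 had no count in medium and 79 and 142 counts in all with IL-4, at least 25.6-fold and 44.4-fold higher in AhR-deficient and wild-type libraries against a floor of 3 counts over the group. H2-K2 fell by 0.62 ± 0.20 and 0.64 ± 0.18 (0.0312 and 0.0107), and H2-Q4, a further H2-Q chain, fell by 0.63 ± 0.18 and 0.56 ± 0.16 (0.0152 and 0.0117). Both share windows with members.

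Of the same 12 relatives, 4 were higher in AhR-deficient than in wild-type medium libraries and none lower, with a median log2 of 0.32, where 8.11% of all genes passed. They were H2-Q4 (0.90 ± 0.16, adjusted p = 0.0106), H2-T10 (0.73 ± 0.17, 0.0239), H2-T22 (0.55 ± 0.14, 0.0313) and H2-M3 (0.55 ± 0.12, 0.0215) by edgeR. With IL-4 only H2-Q4 passed (0.83 ± 0.17, 0.0313), against 1.62% of all genes. Because H2-Q4 and H2-T22 share windows with members, their values may not be independent of the members' values. Hfe differed by -0.04 ± 0.08 and -0.11 ± 0.08 in medium and with IL-4 (adjusted p = 0.807 and 0.498).

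Of 11 chaperones and trimming enzymes, of the endoplasmic reticulum except for the endosomal Lnpep, 2 were higher and 2 lower with IL-4 in AhR-deficient libraries. In wild-type libraries 4 were higher and 2 lower. Of all genes, 29.5% and 35.9% were called in either direction in AhR-deficient and wild-type libraries. The list's median log2 fold change was 0.08 in both. Lnpep, an aminopeptidase of endosomal cross-presentation, fell by 0.54 ± 0.07 and 0.64 ± 0.06 (edgeR, adjusted p = 5.18e-05 and 1.91e-06). Tapbpl, the tapasin relative TAPBPR that edits peptides, fell by 0.44 ± 0.11 and 0.33 ± 0.09 (0.0059 and 0.0132), whereas Hsp90b1, the chaperone gp96, rose by 0.28 ± 0.08 and 0.26 ± 0.07 (0.0117 and 0.0063). Erap1, which trims peptides to class I length, rose by 0.23 ± 0.07 and 0.18 ± 0.06 (0.0159 and 0.0256). In medium Calr (log2 0.36 ± 0.09, adjusted p = 0.0261), Tapbpl (0.35 ± 0.10, 0.0454) and Hspa5 (0.63 ± 0.17, 0.036) were higher in AhR-deficient than in wild-type libraries, where 8.11% of all genes passed, and with IL-4 none of the 11 passed, against 1.62%.

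Of 9 genes of the proteasome, the immunoproteasome and PA28, Psme3 alone passed with IL-4, a smaller share than the 29.5% and 35.9% of all genes. Psme3 rose by 0.32 ± 0.06 in AhR-deficient and 0.28 ± 0.05 in wild-type libraries (edgeR, adjusted p = 0.000872 and 0.000649). The inducible subunits Psmb8, Psmb9 and Psmb10 had log2 fold changes of 0.11, 0.23 and 0.07 in AhR-deficient and 0.23, 0.28 and 0.15 in wild-type libraries, and with the replicate block their adjusted p-values in wild type were 0.00232, 0.0209 and 0.0295. Psmb6, not one of these inducible subunits, was higher in AhR-deficient than in wild-type medium libraries (0.23 ± 0.05, 0.0243).

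Of 13 factors that act at class I promoters, 2 rose and 4 fell with IL-4 in AhR-deficient and 4 rose and 3 fell in wild-type libraries, against 29.5% and 35.9% of all genes called, and the median log2 fold change was -0.07 and 0.01. Atf1, which binds CRE sites, rose by 0.50 ± 0.05 and 0.53 ± 0.04 (edgeR, adjusted p = 3.54e-06 and 2.99e-07). Rfx5, a subunit of the X box complex, fell by 0.76 ± 0.14 and 0.58 ± 0.12 (0.000744 and 0.0016), Rela, the p65 subunit of NF-kB, by 0.66 ± 0.13 and 0.55 ± 0.11 (0.00117 and 0.00121), and Creb1 by 0.49 ± 0.10 and 0.37 ± 0.09 (0.00171 and 0.00373). Rfx5 (0.53 ± 0.13, 0.025) and Nfya, a Y box factor (0.24 ± 0.06, 0.0238), were higher in AhR-deficient than in wild-type medium libraries.

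Of 12 genes that carry interferon signals, 3 rose and 3 fell with IL-4 in AhR-deficient libraries and 5 rose and 2 fell in wild-type libraries, against 29.5% and 35.9% of all genes called, and the median log2 fold change was -0.16 and -0.09. Socs1, the inhibitor of JAK kinases, averaged 147 against 1.13 CPM in AhR-deficient and 130.3 against 0.678 CPM in wild-type libraries (log2 7.02 ± 0.22 and 7.57 ± 0.21, edgeR adjusted p = 4.96e-11 and 6.76e-12). Jak2 rose by 0.95 ± 0.14 and 1.14 ± 0.13 (0.000179 and 6.35e-06), and the receptor chains Ifnar1 and Ifnar2 fell by 0.68 ± 0.11 and 0.70 ± 0.09 and by 0.19 ± 0.05 and 0.38 ± 0.05 (adjusted p = 0.0002 and 3.3e-05, and 0.0148 and 2.21e-05). Ifngr1, a chain of the interferon gamma receptor, was lower in AhR-deficient than in wild-type medium libraries (-0.51 ± 0.10, 0.0106), and Ifnar2 was higher with IL-4 (0.26 ± 0.05, 0.0276).

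All members but B2m and Nlrc5 lie on chromosome 17 between 33 and 38 Mb (GRCm38), with H2-K1 at chr17:33996017-34000347 and H2-T23 at chr17:36029773-36032855. B2m is on chromosome 2 (chr2:122147686-122153083) and Nlrc5 on chromosome 8 (chr8:94434356-94527272). Of 148 tested genes outside the members in that stretch of chromosome 17, 10.8% passed in medium between the genotypes, 14 higher and 2 lower in AhR-deficient libraries, and 2.7% with IL-4, against 8.11% and 1.62% of all genes. The genes called in medium included H2-Q4, H2-T10, H2-T22 and H2-M3, already counted among the relatives of the class I chains. They also included H2-Q5 (log2 1.28 ± 0.25 in medium, edgeR adjusted p = 0.012), Mrps18b (0.35 ± 0.07, 0.0135) and Lst1 (0.29 ± 0.06, 0.0172). H2-Q5 is a further H2-Q gene that shares windows with H2-Q6 and H2-Q7.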

How the data were processed

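Raw counts per gene were deposited by the authors as 1 table of 14 libraries, per the file header, and each column was matched to its sample by the description in the labels. Per the labels, RNA (500 ng per library) was made into stranded libraries and sequenced as paired reads of 100 bases. The submitters' processing notes name FastQC, STAR and the mm10 build. The counting program, its annotation, its strand setting and its handling of reads that match several genes are not given in these sources. Identifiers were named with GENCODE M21 (55094 of 55487 matched with version), and every column of the table was mapped.

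Counts were scaled by TMM, filtered with filterByExpr (14754 genes, which hold 99.947% or more of the counts in any library) and tested with edgeR 4.0.16 (quasi-likelihood, 4 group means over all 14 libraries, 10 residual degrees of freedom) in R 4.3.3, with Benjamini-Hochberg adjustment over all genes. The SE is the log2 fold change divided by the square root of F. Members, gene lists and tests were chosen with earlier results of these data known. The 10 members are named in every comparison. From each pathway list, up to 4 genes with the smallest adjusted p for IL-4 in wild type and up to 4 called between genotypes are named; from the H2 region, up to 4 called between genotypes; and for Nlrc5 and H2-K1, the 5 genes of highest Pearson r. H2-Q4 with IL-4, Psmb8, Psmb9, Psmb10 and Jchain were named after their values were seen.

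Libraries with the same number deviated together from their group means (r of 0.17 to 0.706 over 10575 genes, each highest with its own number), so the number was taken as a pairing and its block (5 residual degrees of freedom) is given where it changed a call. Nothing says that numbers are separate mice, and p-values measure only the spread between these libraries. Alternatives were other scalings, filters, DESeq2 1.42.0, limma 3.58.1 (voom), only the groups compared, the block, a granulocyte marker covariate, each library left out, and number 7 left out, which was added after seeing the data. The fitting was tested on simulated counts. Promoters come from RefSeq, and motifs were searched on both strands of 32851 windows.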

Additional observations from a re-analysis of the deposited data

Results flagged for a closer look

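Of 22 sets of 4 wild-type libraries tested, each of the 10 members and the summed heavy chains with IL-4 and in medium, 2 held a library far from its 3 neighbours, and chance flags about 1 set in 20. H2-D1 was at 1478 CPM in the wild-type IL-4 library of number 7, the lowest of its group, against 1705 to 1736 CPM in the others. H2-Q6 was at 27.1 CPM in the wild-type medium library of number 1, again the lowest, against 47.3 to 49.7 CPM in the others. The AhR-deficient groups of 3 were too small for this test.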

How the results depend on the processing

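No called value changed sign under any alternative. Values near 0 that passed no test did: Tap1 with IL-4 in wild type was -0.02341 without number 7 and -0.04969 to 0.1037 with 1 library left out, and with 1 library left out Tap1 spanned -0.2369 to 0.09351 and H2-T23 -0.1724 to 0.1292 with IL-4 in AhR-deficient libraries, Tap2 -0.01313 to 0.1585 between genotypes with IL-4, and the interaction of the summed chains -0.1765 to 0.06171. For IL-4 in wild type, the members called were 7 with the fixed and 7 with the random replicate block, 0 without number 7, and 0 to 4 with 1 library left out. Over all genes, the blocks called 6297 and 6549 of 14754 and the fit without number 7 called 4138 of 14668, against 5296 of 14754. The summed heavy chains gave -0.23 with the granulocyte covariate (adjusted p = 0.0557), -0.20 without number 7 (0.222), and -0.31 to -0.21 with 1 library left out. For IL-4 in AhR-deficient libraries the members called were 2 with upper-quartile scaling, limma-voom, only the groups compared or the granulocyte covariate. They were 3 with no filter or without number 7, 5 with the fixed and 4 with the random replicate block, and 0 to 4 with 1 library left out. Over all genes, the settings with 2 members called 4273 to 4448, no filter 3855 of 27587 and the fit without number 7 4267 of 14668. The fixed and random blocks called 5344 and 5585, against 4359 of 14754. The sum no longer passed, at -0.3206 with DESeq2's size factors (0.0523), -0.3085 with no filter (0.0603), -0.3126 with a filter of 1 CPM (0.0507), -0.3164 with only the groups compared (0.116) and -0.322 without number 7 (0.0512), and spanned -0.45 to -0.21 with 1 library left out.

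Between genotypes in medium, the members called were 9 with DESeq2, 2 with only the groups compared, 0 with the granulocyte covariate and 0 to 9 with 1 library left out, and the sum was 0.4677 with only the groups compared (adjusted p = 0.0662), 0.3755 with the covariate (0.0736) and 0.37 to 0.59 with 1 library left out. Fitting only the 2 medium groups called 59 genes in all, against 1197. With IL-4, the members called were 2 with DESeq2's size factors, 3 with upper-quartile scaling, limma-voom, a filter of 1 CPM or only the groups compared, 7 with DESeq2, 6 with no filter, 4 with the random replicate block, 0 with the covariate and 0 to 5 with 1 library left out. The sum there passed with DESeq2 (0.444, adjusted p = 0.00396), no filter (0.4383, 0.03) and the random block (0.4238, 0.0421), and spanned 0.30 to 0.51 with 1 library left out. Over all genes, DESeq2 called 1981 in medium and 802 with IL-4, against 1197 and 239 by edgeR. With IL-4, 252 genes passed with DESeq2's size factors, 273 with upper-quartile scaling and 295 with limma-voom. A filter of 1 CPM gave 291 of 12038, only the groups compared 523 of 14083 and no filter 361 of 27587. The random block gave 420 with IL-4, and the covariate 386 in medium and 29 with IL-4. The interaction stayed at 0 members in all 24 alternatives, while the sign of each of the 10 members' estimates changed in at least 1 of them. The fixed or random replicate block changed no member's call other than those given with the results. The cause of these shifts was not tested. With 3 or 4 libraries a group, most calls of this family lie close to the threshold.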
